A study of Mus musculus with 12 samples.

Results

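The genes described here encode enzymes that make nucleotides and carry one-carbon units, followed in mouse tumors and normal mouse lung. They were taken by symbol from a list of 34 genes covering pyrimidine and purine synthesis, deoxynucleotide supply, serine synthesis and the folate one-carbon reactions. Of these, 32 were among the 30399 genes of the deposited table, and all 32 passed the filter on low values (a mean normalized count of at least 1) and entered the 23674 genes tested. Tk1 and Aprt were not analysed here. The study concerns lung cancer models made in mice with CRISPR/Cas9 and no virus. Poly-A selected RNA was sequenced from 5 normal lungs and 7 tumors, grouped by their tissue label. Sample numbers used below (normal lungs 1 to 5, tumors 1 to 7) follow the order of listing. Genotype, strain, age, sex, the targeted genes and the treatment of the mice that gave normal lung are not given in the sources used here. The 5 normal lungs carry 5 different numbers in their titles. The 7 tumors carry 4, because tumors 3 and 4 share a number and tumors 5, 6 and 7 share another. What the number stands for is not given, so tumors with the same number may share a source, and p-values measure the spread between these samples only. The titles of tumors 1 and 7 hold a word for trachea.

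Reads assigned to genes totalled 11126432 to 17032234 per normal lung and 13093843 to 24217633 per tumor, so that 3 reads correspond to a normalized count of at most 4.85 and 3.57 respectively. These floors cover counting error only. All 8 neuroendocrine markers (among them Chga and Insm1) were higher in tumors, with sums of 112.9 to 166.7 per normal lung against 29971 to 119838 per tumor. All 8 lung epithelium markers (Sftpc and Ager among them) were lower, with sums of 284415 to 509724 per normal lung against 481 to 3216 per tumor, and all 6 endothelial markers (Pecam1 and Cdh5 among them) were lower, at 61763 to 71455 against 2409 to 7380. Dcx was at 0 in all 5 normal lungs, Sftpa1 in tumor 7 and Cldn18 in tumors 1 and 3. The 4 Y-linked transcripts examined gave a mean log2(normalized count + 1) of 9.14 to 9.43 in 4 normal lungs and in tumor 1. The same mean was 0.50 in tumor 3, 1.48 in tumor 4 and 0 in normal lung 3 and the other 4 tumors. In bulk tissue, fewer cells of a type and less RNA per cell cannot be told apart.

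Cells obtain nucleotides either by building them from small precursors or by recycling bases and nucleosides. Purine rings are assembled on a ribose phosphate until inosine monophosphate (IMP) is reached, which then branches to AMP and GMP, whereas the pyrimidine ring is closed first and attached to ribose phosphate afterwards. Ribonucleotide reductase converts ribonucleotides to deoxyribonucleotides, and thymidylate synthase makes the base that only DNA carries. Both purine rings and thymidylate draw on one-carbon units carried by folate, which come largely from serine in the cytosol and in mitochondria. Demand for these products is high in cells that copy their DNA.

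Most of the members were higher in tumors. By limma's moderated test over all genes, at a Benjamini-Hochberg adjusted p under 0.05, 25 of the 32 rose, 4 fell and 3 did not pass. Of all genes tested, 31.4% were called higher and 30.1% lower, together 61.5%, which is the background for these counts. Among the 10917 tested genes whose mean level lay within the range of the members, 33.4% were higher and 31.3% lower. The median log2 fold change (below also log2 change), tumor minus normal lung on log2(normalized count + 1), was 1.16 over the members and 0.04 over all genes tested, and the members ran from -1.12 to 4.82. All 7 tumors lay above all 5 normal lungs for 21 members, against 20.1% of all genes tested, and below them for 4, against 18.4%. The groups overlapped for the other 7 members, which were Dhodh, Ctps2, Prps1, Paics, Atic, Phgdh and Shmt1. Called increases with a log2 fold change of at least 1 were seen for 18 members, against 24.0% of all genes.

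**Figure D1:**
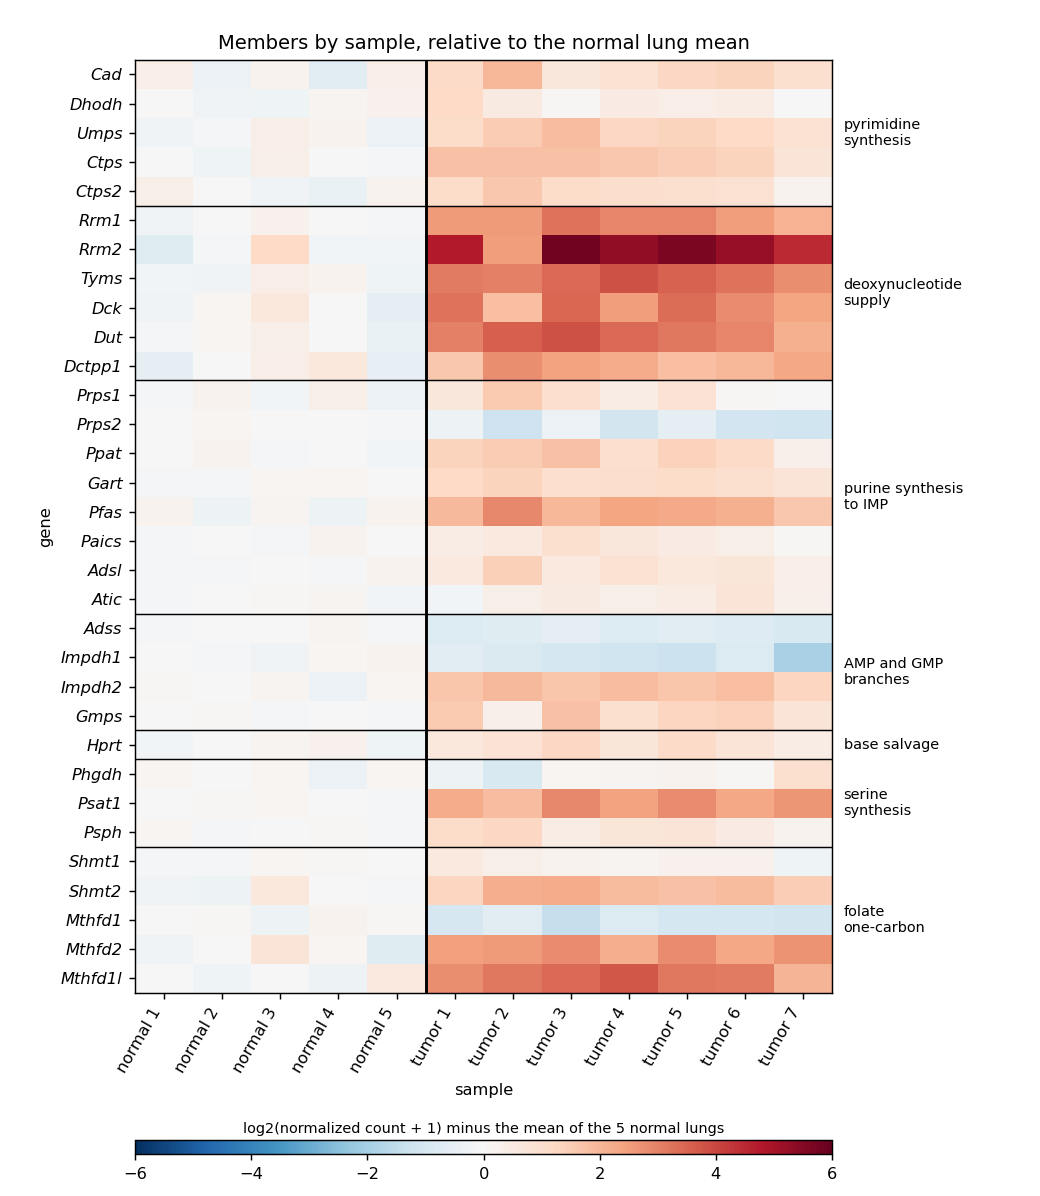
Levels of the 32 members (rows, ordered by role) in the 5 normal lungs and 7 tumors (columns), as log2(normalized count + 1) minus the mean of the 5 normal lungs, with red above and blue below that mean. The 6 deoxynucleotide genes are red in all 7 tumors, and Prps2, Adss, Impdh1 and Mthfd1 are blue in all 7.

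Markers of dividing cells were higher in tumors, as most of the members were. All 10 proliferation markers (Mki67 and Top2a among them) were higher in tumors, with sums of 1672 to 3313 per normal lung against 23297 to 52267 per tumor. The highest normal sum was that of normal lung 3 and the lowest tumor sum that of tumor 7. Normal lung 3 was also the highest of the normal lungs for 13 of the 32 members, and tumor 7 the lowest of the tumors for 20 of them. Tumor 5 had the highest sum, at 52267, of which Mki67 made up 27360, and was the highest tumor for 0 of the 32 members. Tumor 3, with a sum of 49188, was the highest tumor for 13 members and the lowest for 2. Tumor 2, with a sum of 46420, was the highest tumor for 11 members and the lowest for 6. The part of these markers in the members' differences was not tested.

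**Figure D2:**
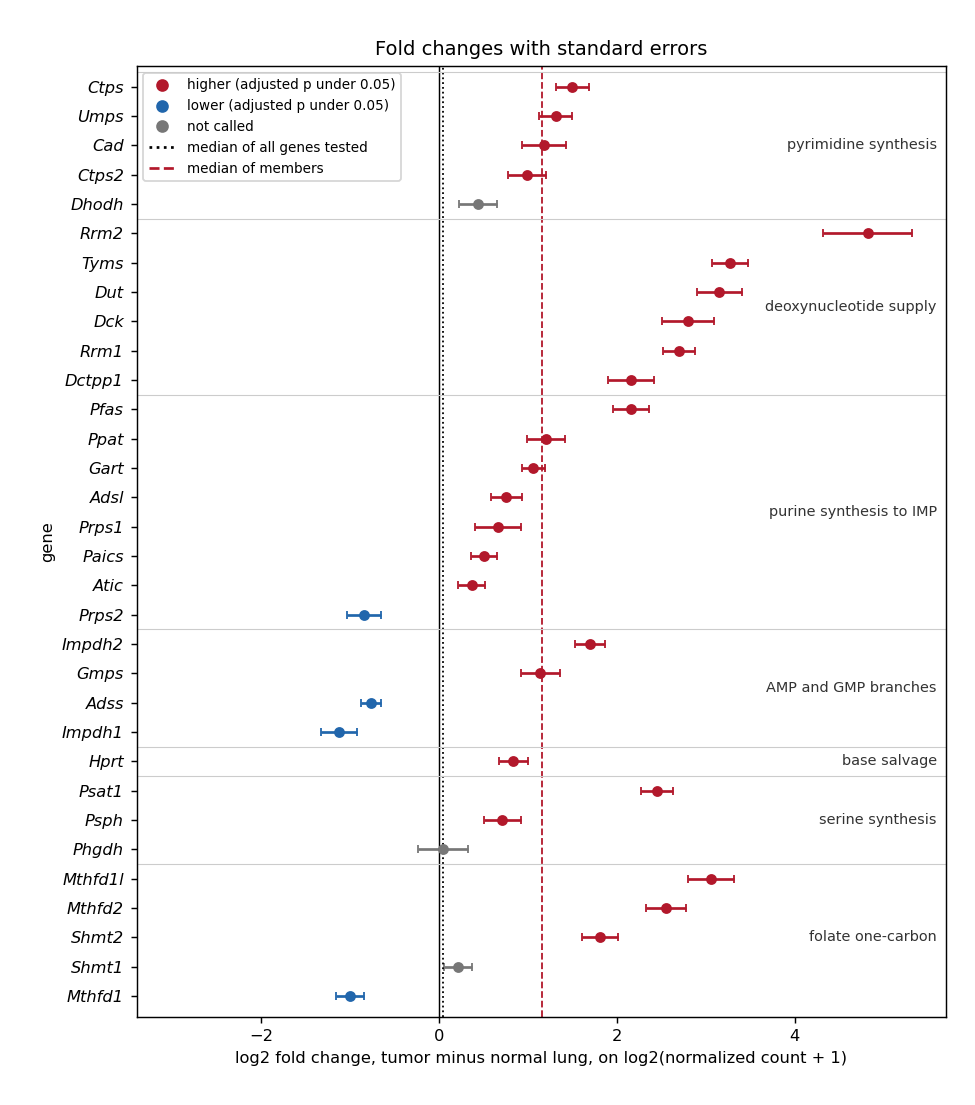
Log2 fold change of each member, tumor minus normal lung, with bars of 1 standard error, grouped by role. The dotted line marks the median of all genes tested (0.04) and the dashed line that of the members (1.16), and the deoxynucleotide genes all lie to the right of both.

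The 6 genes of deoxynucleotide supply gave the highest median of the 7 role groups, 2.98, and all 6 rose with no overlap between the groups. Ribonucleotide reductase is built from a large catalytic subunit, Rrm1, and a small radical-bearing subunit, Rrm2. The promoters of these subunit genes are shown because both rose and both hold the pentamer CCAAT, in capitals, which was searched on both strands (as CCAAT or ATTGG). Each run covers the 120 bases upstream of a start given by RefSeq on GRCm38.p6, 5′ to 3′ in the direction of transcription. Rrm1 lies on the plus strand at chr7:102441575-102441694 and its CCAAT copies begin 91 and 45 bases upstream of the start. Rrm2 lies on the plus strand at chr12:24708134-24708253 with a copy 50 bases upstream.
Rrm1: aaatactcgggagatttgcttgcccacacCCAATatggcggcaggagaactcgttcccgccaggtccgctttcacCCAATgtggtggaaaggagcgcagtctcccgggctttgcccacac
Rrm2: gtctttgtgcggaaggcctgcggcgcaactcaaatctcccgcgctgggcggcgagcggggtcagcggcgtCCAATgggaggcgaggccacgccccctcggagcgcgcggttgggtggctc

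Rrm2 (ENSMUSG00000020649) had the largest fold change of the members. Its normalized counts were 55.5, 84.9, 208, 80.4 and 80.5 for normal lungs 1 to 5, against 2507, 529, 5076, 3634, 4694, 3466 and 2084 for tumors 1 to 7. Every tumor exceeded every normal lung, but tumor 2 lay far below the other 6 tumors and normal lung 3 was the highest of its group. The means, over the same n in all that follows, were 102 ± 60.6 (SD, n = 5) and 3142 ± 1573 (SD, n = 7), with a log2 change of 4.82 (± 0.50 SE, adjusted p = 2.43e-06), or 28.3-fold. This fold change stood at percentile 97.3 of all genes tested. Rrm1 (ENSMUSG00000030978) had 334, 387, 454, 382 and 366 in normal lungs and 2276, 2278, 3617, 2963, 2939.6, 2206 and 1654 in tumors. Every tumor lay above every normal lung, and tumor 2 was not set apart. The Rrm1 means were 385 ± 43.9 and 2562 ± 649, with a log2 change of 2.70 (± 0.18 SE, adjusted p = 3.86e-08).

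Tyms (ENSMUSG00000025747), thymidylate synthase, turns dUMP into thymidylate with a folate cofactor. Its counts were 85.1, 82.8, 128, 110.0 and 80.5 in normal lungs and 841, 780.3, 1013, 1352, 1116, 933 and 658 in tumors. The lowest tumor lay far above the highest normal lung, and the log2 change of 3.27 (± 0.20 SE, adjusted p = 1.91e-08) corresponds to 9.68-fold. Dut (ENSMUSG00000027203), the dUTPase that keeps uracil out of DNA and supplies dUMP, had 251, 301, 349, 275 and 210.4 in normal lungs and 2231, 3295, 3817, 2940.3, 2479, 2121 and 1194 in tumors. Tumor 7 was the lowest of the tumors and still above all normal lungs, with a log2 change of 3.15 (± 0.25 SE, adjusted p = 1.90e-07). Dck (ENSMUSG00000029366), which phosphorylates deoxycytidine and other deoxynucleosides in salvage, had 288, 356, 509, 337 and 225 in normal lungs and 3183, 1172, 3656, 1912, 3395, 2338 and 1707 in tumors. Tumor 2 was again the lowest of the 7, as for Rrm2, and the log2 change of 2.80 (± 0.29 SE, adjusted p = 2.36e-06) corresponds to 6.97-fold. Dctpp1, which removes dCTP and its modified forms from the pool, ranged from 74.8 to 166 in normal lung and 333 to 747 in tumors. It rose least within this group, at a log2 change of 2.16 (± 0.26 SE, adjusted p = 9.76e-06).

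**Figure D3:**
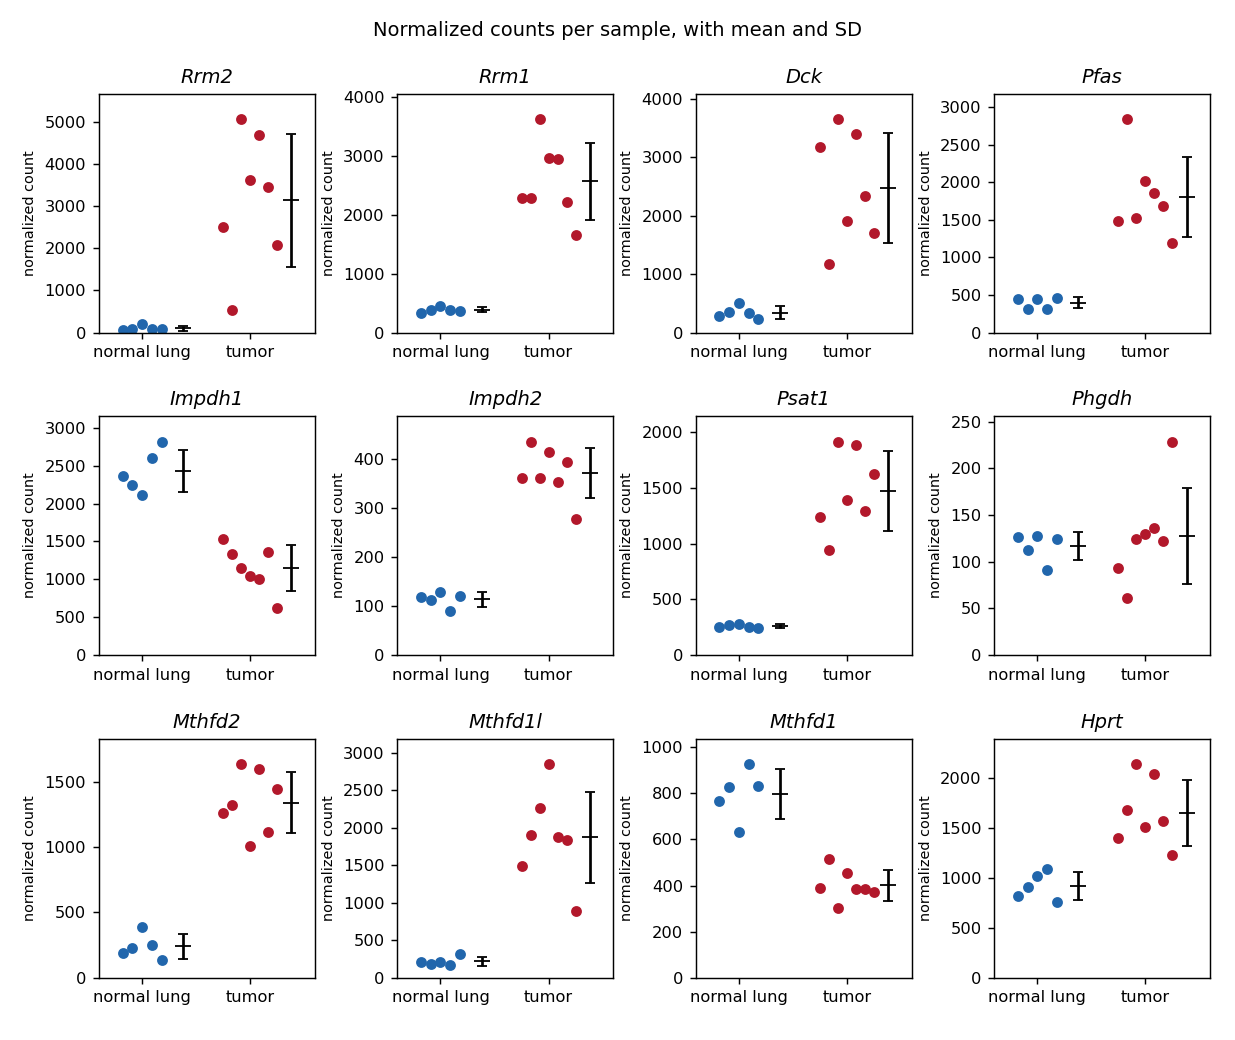
Normalized counts, on linear axes from 0, of 12 members in each normal lung (blue) and each tumor (red), with the mean and SD of each group in black. Rrm2 shows 6 tumors at 2084 or more and tumor 2 at 529, Psat1 shows all 7 tumors at 941 or more, and Impdh1 and Mthfd1 show every tumor below every normal lung.

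Pyrimidine synthesis gave 4 increases among 5 genes, with a median log2 fold change of 1.19. Cad (ENSMUSG00000013629) encodes the protein that carries the opening 3 enzyme activities of the pathway. Its counts were 373, 216, 321, 183 and 366 in normal lungs and 623, 1119.8, 453, 538, 663, 710.3 and 548 in tumors, and tumor 2 was the highest of all samples. The groups did not overlap, with means of 292 ± 87.1 and 665 ± 218 (SD) and a log2 change of 1.19 (± 0.25 SE, adjusted p = 9.69e-04). Umps (ENSMUSG00000022814), which completes UMP, ranged from 336 to 559 in normal lung and 806 to 1549.6 in tumors, with a log2 change of 1.31 (± 0.18 SE, adjusted p = 3.83e-05). Ctps (ENSMUSG00000028633), the CTP synthase that aminates UTP, had 351, 300.0, 455, 367 and 332 in normal lungs and 1192, 1219.9, 1197, 1103, 1010.3, 910.4 and 621 in tumors. Tumor 7 was the lowest tumor and still above all normal lungs, with a log2 change of 1.50 (± 0.19 SE, adjusted p = 1.25e-05). Its paralogue Ctps2, which is X-linked, ranged from 358 to 596 in normal lung and 544 to 1437 in tumors. It rose with a log2 change of 0.99 (± 0.22 SE, adjusted p = 0.00128), although tumor 7 lay below normal lung 1.

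Dhodh (ENSMUSG00000031730), the mitochondrial enzyme that oxidizes dihydroorotate, did not pass the test. Its counts were 302, 262, 252, 340.0 and 362 in normal lungs and 691, 434, 317, 421, 394, 409 and 291 in tumors. Only tumor 1 stood clearly apart, while tumors 3 and 7 lay within the normal range. It had a log2 change of 0.44 (± 0.21 SE, adjusted p = 0.0834). The difference was called when tumor 7 was left out (log2 0.52, adjusted p = 0.0359) or under 4 other settings: edgeR (0.62), DESeq2 (0.56), equal column totals (0.64) and a Y-linked covariate (0.83).

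The steps from ribose phosphate to IMP gave smaller changes. Of the 8 genes, 7 rose and 1 fell, with a median log2 fold change of 0.71. Phosphoribosyl pyrophosphate synthetase, which makes the activated ribose used in purine and pyrimidine synthesis and in base salvage, is encoded by Prps1 and Prps2, both X-linked. Prps2 (ENSMUSG00000025742) had 1447, 1623, 1521, 1467 and 1398 in normal lungs and 1209.8, 631, 1165, 694, 1015, 677 and 641 in tumors. All tumors were below all normal lungs, and the gene fell with a log2 change of -0.84 (± 0.19 SE, adjusted p = 0.00193). Prps1 (ENSMUSG00000031432) had 414, 504, 384, 553 and 337 in normal lungs and 699.5, 1285, 869, 579, 778, 449 and 439 in tumors. Tumors 6 and 7 lay within the normal range, and tumor 2 was the highest sample. Prps1 rose with a log2 change of 0.66 (± 0.26 SE, adjusted p = 0.0381). This call was lost when any of normal lungs 1, 3 and 5 or tumors 1, 2, 3 and 5 was left out (log2 0.51 to 0.66, adjusted p = 0.0544 to 0.0937) and with a Y-linked covariate (log2 0.73, adjusted p = 0.101).

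Ppat, the amidotransferase that commits ribose phosphate to purine synthesis, ranged from 331 to 437 in normal lung and 470.1 to 1254 in tumors, with a log2 change of 1.21 (± 0.21 SE, adjusted p = 2.63e-04). Gart, which carries 3 of the following activities including a folate-dependent transformylase, ranged from 442 to 521 in normal lung and 824 to 1210.3 in tumors, with a log2 change of 1.06 (± 0.13 SE, adjusted p = 1.03e-05). Pfas (ENSMUSG00000020899), which adds a further nitrogen, changed most in this group. Its counts were 446, 315, 439, 312 and 455 in normal lungs and 1486, 2836, 1525, 2015, 1856, 1679 and 1189 in tumors, so that the lowest tumor was above the highest normal lung. This was a 4.47-fold difference (log2 fold change 2.16, SE 0.20, adjusted p = 1.02e-06). Paics, Adsl and Atic carry out the steps that follow and had smaller values. Paics ranged from 1714 to 2139 in normal lung and 1925 to 3612 in tumors and rose with a log2 change of 0.51 (± 0.15 SE, adjusted p = 0.00928), with tumor 7 inside the normal range. Adsl ranged from 473 to 606 in normal lung and 686 to 1410.5 in tumors, with a log2 change of 0.76 (± 0.17 SE, adjusted p = 0.00196) and no overlap. Some exon bases of Ppat (6.15%), Paics (8.67%) and Gart (19.7%) are shared with another gene in GENCODE M21, and how reads there were assigned is not given in the sources used here.

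Atic, the bifunctional enzyme of the last steps before IMP, stood at the edge of the test. Its counts were 705, 742, 762, 828 and 658 in normal lungs and 667, 954, 1054, 939, 1001, 1245 and 898 in tumors. Tumor 1 lay within the normal range and the other 6 tumors above it. With a log2 change of 0.37 (± 0.15 SE, adjusted p = 0.0490), it was called higher. It was not called when any of normal lungs 1, 2, 3 and 5 or tumors 2, 3, 4, 5 and 6 was left out (log2 0.30 to 0.38, adjusted p = 0.0566 to 0.110). It also missed the threshold with same-numbered tumors averaged (0.29) or correlated (0.34), a Y-linked covariate (0.15), quantile normalization (0.35), no filter (0.37) and edgeR without a filter (0.37).

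At the branch from IMP, members moved in opposite directions. IMP dehydrogenase opens the route to GMP and has paralogues Impdh1 and Impdh2. Impdh1 (ENSMUSG00000003500) had 2368, 2249, 2109, 2608 and 2817 in normal lungs and 1538, 1334, 1153, 1038, 1002, 1366 and 619 in tumors. Every tumor lay below every normal lung and tumor 7 was the lowest, with a log2 change of -1.12 (± 0.20 SE, adjusted p = 2.91e-04). Impdh2 (ENSMUSG00000062867) had 119, 112, 128, 88.9 and 121 in normal lungs and 360.2, 435, 362, 415, 353, 394 and 278 in tumors. Here every tumor lay above every normal lung, with a log2 change of 1.70 (± 0.17 SE, adjusted p = 1.92e-06). Gmps, which completes GMP, ranged from 389 to 439.7 in normal lung and 507 to 1396 in tumors and rose with a log2 change of 1.14 (± 0.22 SE, adjusted p = 5.87e-04), tumor 2 being the lowest tumor. Adss (ENSMUSG00000015961), which takes IMP toward AMP, had 1219, 1299.9, 1257, 1439 and 1217 in normal lungs and 722, 777, 845, 727, 799, 741 and 688 in tumors. The 7 tumors were narrowly grouped below the normal lungs, and the gene fell with a log2 change of -0.76 (± 0.11 SE, adjusted p = 5.58e-05).

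Hprt (ENSMUSG00000025630), the X-linked salvage enzyme for hypoxanthine and guanine that is often used as a reference gene, had 815, 903, 1013, 1090.4 and 759 in normal lungs and 1397, 1673, 2133, 1505, 2040.1, 1570.1 and 1225 in tumors. All tumors were above all normal lungs, with means of 916 ± 137 and 1649 ± 331 (SD) and a log2 change of 0.84 (± 0.16 SE, adjusted p = 5.67e-04). The log2 fold change was 0.86 by edgeR, 0.80 by DESeq2 and 1.04 after scaling columns to equal totals. Since Y-linked transcripts differed between the groups, the X-linked members were also fitted with a Y-linked covariate. That gave 0.69 for Hprt, 1.13 for Ctps2 and -0.65 for Prps2, called there too. It gave 0.73 for Prps1, which was not called (adjusted p = 0.101). Y-linked transcripts were high in 4 of 5 normal lungs and 1 of 7 tumors. The covariate therefore largely follows tissue, and no fit with it in this text separates the effects well.

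Serine is made from a glycolytic intermediate by 3 enzymes in sequence, Phgdh, Psat1 and Psph, of which 2 rose and 1 did not pass. The differences between these genes were not tested. Phgdh (ENSMUSG00000053398), the opening dehydrogenase, had 126, 113, 128, 91.7 and 124 in normal lungs and 93.1, 60.8, 125, 129, 136, 122 and 229 in tumors. Tumor 7 was the highest and tumor 2 the lowest of all 12 samples. Phgdh did not pass (log2 fold change 0.05, SE 0.28, adjusted p = 0.896), and its sign turned without normal lung 4 (-0.037) or without tumor 7 (-0.11). Psat1 (ENSMUSG00000024640), the aminotransferase of the following step, had 254, 273, 281, 254 and 246 in normal lungs and 1242, 941, 1916, 1396, 1888, 1296 and 1631 in tumors. The 5 normal lungs differed little from each other, and the lowest tumor was far above them, with a log2 change of 2.45 (± 0.18 SE, adjusted p = 8.28e-08), or 5.47-fold. Psph, the closing phosphatase, ranged from 130.1 to 152 in normal lung and 159 to 330.0 in tumors, with a log2 change of 0.71 (± 0.21 SE, adjusted p = 0.00904). In GENCODE M21, 10.4% of its exon bases are shared with Cct6a.

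In the folate reactions the 3 mitochondrial members rose, while of the 2 cytosolic ones 1 fell and 1 did not pass. Serine hydroxymethyltransferase moves a carbon from serine to folate, in mitochondria as Shmt2 and in the cytosol as Shmt1. Shmt2 (ENSMUSG00000025403) had 324, 306, 591, 372 and 364 in normal lungs and 922, 1717, 1767, 1400.1, 1305, 1427 and 1057 in tumors. Normal lung 3 was the highest of its group and still below the lowest tumor, with a log2 change of 1.81 (± 0.21 SE, adjusted p = 5.86e-06). Shmt1 (ENSMUSG00000020534) had 299, 290.3, 350.5, 332 and 329.9 in normal lungs and 478, 401, 372, 354, 382, 382 and 267 in tumors. The groups overlapped, tumor 7 being the lowest sample, and Shmt1 missed the threshold with a log2 change of 0.22 (± 0.16 SE, adjusted p = 0.250). After scaling columns to equal totals, which moved the median of all genes from 0.04 to 0.24, it was 0.42 and was called.

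Mthfd2 (ENSMUSG00000005667), a mitochondrial dehydrogenase and cyclohydrolase for methylene-folate, had 192, 229, 391, 247 and 136 in normal lungs and 1264, 1327, 1638, 1010.3, 1601, 1117 and 1447 in tumors. The lowest tumor was above the highest normal lung, with a log2 change of 2.55 (± 0.23 SE, adjusted p = 6.21e-07). Mthfd1l (ENSMUSG00000040675), which releases formate in mitochondria, had 210.2, 178, 207, 169 and 321 in normal lungs and 1485, 1897, 2267, 2844, 1872, 1830.2 and 883 in tumors. Tumor 4 was the highest and tumor 7 the lowest tumor, with a log2 change of 3.06 (± 0.26 SE, adjusted p = 3.29e-07), or 8.35-fold. Mthfd1 (ENSMUSG00000021048), the cytosolic enzyme that carries all 3 activities, had 769, 828.9, 631, 927 and 832 in normal lungs and 388, 517, 304, 454, 385, 385 and 374 in tumors. Every tumor was below every normal lung, and the gene fell with a log2 change of -0.995 (± 0.16 SE, adjusted p = 1.14e-04).

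Promoters of Psat1 and Mthfd2 are shown for the serine and folate groups because both genes rose and both hold CCAAT, in the same form as for ribonucleotide reductase. All 4 displayed genes were chosen after their values were seen. Psat1 lies on the minus strand at chr19:15925060-15925179, with copies beginning 36 and 6 bases upstream of the start. Mthfd2 lies on the minus strand at chr6:83317605-83317724, with copies 96, 47 and 22 bases upstream, the middle one written as ATTGG.
Psat1: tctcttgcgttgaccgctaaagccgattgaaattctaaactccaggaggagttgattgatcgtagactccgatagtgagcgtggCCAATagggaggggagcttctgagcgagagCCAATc
Mthfd2: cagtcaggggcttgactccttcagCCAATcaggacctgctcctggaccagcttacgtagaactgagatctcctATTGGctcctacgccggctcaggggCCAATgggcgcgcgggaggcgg

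Over all members with a RefSeq promoter, CCAAT was found on either strand within 250 bases upstream for 14 of 30 (46.7%), against 37.5% of 27025 genes with a promoter. It was found for 11 of the 24 members that rose and for 1 of the 4 that fell. The E-box CACGTG was found for 4 of 30 (13.3%), namely Atic, Impdh2, Paics and Tyms, against 6.86% of all genes. One of the E2F-type octamers TTTCCCGC, TTTCGCGC, TTTGCCGC and TTTGGCGC, on either strand, was found for 1 of 30 (3.33%), Ppat, against 2.16%. Such matches describe the letters of these windows and nothing about binding.

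Levels of different genes were compared per kilobase of merged exon. In normal lung the highest members were Impdh1 at 738, Hprt at 711 and Paics at 589 normalized counts per kilobase. In tumors the order was Hprt at 1279, Rrm2 at 1134 and Dut at 1072. Rrm2 had been 28th of the 32 in normal lung, at 36.8, and Dut 11th. Impdh1 went from rank 1 to rank 11, at 349, while Dck went from rank 17 to rank 6 and Mthfd1l from rank 24 to rank 8. Paics kept a high rank in both tissues, the third and the fourth.

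The balance within paralogue and partner pairs was then compared inside each sample, as the difference of log2(normalized count + 1), in which the scaling of a column largely cancels. These differences are not corrected for gene length, so their sign does not rank the genes of a pair. Of 11 pairs listed, 10 could be computed. Each was compared between tissues by exact permutation of the tissue labels (two-sided, smallest possible p 0.00253), adjusted over the 10 pairs. All 10 passed an adjusted p of 0.05 and 7 showed no overlap. The pairs were chosen with earlier results known, 61.5% of single genes were called, and the share over other gene pairs was not computed, so nothing is read from these counts. Impdh2 minus Impdh1 was -4.41 ± 0.31 (SD) in normal lung and -1.59 ± 0.31 in tumors, a shift of 2.82 (exact permutation p = 0.00253, adjusted p = 0.00361). Neither group overlapped the other, and the spread was alike in both. Shmt2 minus Shmt1 went from 0.25 ± 0.28 to 1.85 ± 0.42, a shift of 1.59, and tumor 1 was the lowest tumor at 0.95. Mthfd1l minus Mthfd1 went from -1.90 ± 0.44 to 2.16 ± 0.54, a shift of 4.06. The difference was negative in all 5 normal lungs and positive in all 7 tumors.

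**Figure D4:**
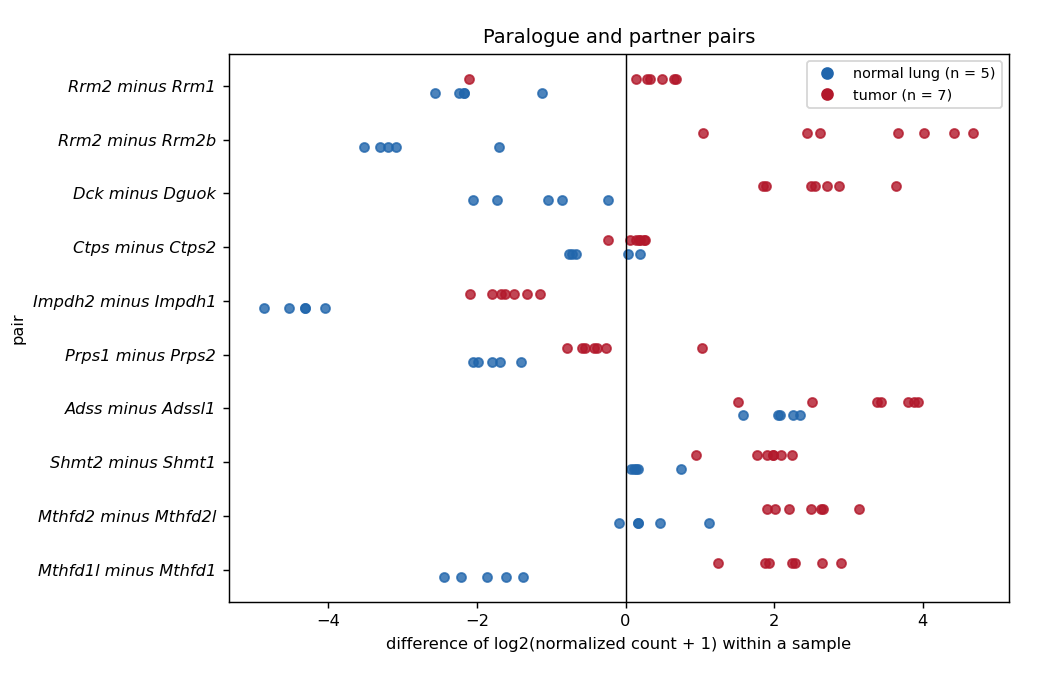
Within-sample log2 difference of each of 10 gene pairs, with the 5 normal lungs in blue and the 7 tumors in red; 0 means equal normalized counts, uncorrected for gene length. Mthfd1l minus Mthfd1 lies below 0 in all normal lungs and above 0 in all tumors, while Impdh2 minus Impdh1 stays below 0 in both.

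Rrm2 was also compared with its alternatives. Rrm2b, a small subunit used outside S phase, fell with a log2 change of -1.41 (± 0.24 SE, adjusted p = 1.90e-04). Rrm2 minus Rrm2b went from -2.96 ± 0.72 to 3.27 ± 1.30, a shift of 6.23. Rrm2 minus Rrm1 went from -2.05 ± 0.55 to 0.07 ± 0.98 (exact permutation p = 0.00505, adjusted p = 0.00631). Tumor 2, at -2.10, lay within the normal range of -2.57 to -1.12, and the other 6 tumors lay at 0.14 to 0.68. The sum of proliferation markers in tumor 2 was 46420, of which Mki67 made up 22196, against a tumor median of 38355. The part of these markers in the Rrm2 value of tumor 2 was not tested.

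Dck and the mitochondrial deoxynucleoside kinase Dguok moved apart, since Dguok fell with a log2 change of -0.96 (± 0.19 SE, adjusted p = 7.17e-04). Dck minus Dguok went from -1.19 ± 0.72 to 2.57 ± 0.61, a shift of 3.76. Mthfd2 minus Mthfd2l, the latter a related mitochondrial enzyme, shifted by 2.07, and Prps1 minus Prps2 by 1.50. For Prps1 and Prps2, tumor 2 was the only sample above 0, at 1.02. Mthfd2l itself had a log2 change of 0.48 (± 0.19 SE, adjusted p = 0.0368), lost when any of normal lungs 1, 3, 4 and 5 or tumors 2 to 6 was left out (log2 0.41 to 0.49, adjusted p = 0.0508 to 0.0952).

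Smaller shifts were seen for the remaining pairs, both with overlap. Ctps minus Ctps2 shifted by 0.51 (exact permutation p = 0.0354, adjusted p = 0.0354). It missed the threshold without any one of normal lungs 1, 2 and 5 or tumors 1, 3, 4, 5, 6 and 7 (shift 0.41 to 0.51, exact permutation adjusted p = 0.0519 to 0.0848). Adss minus Adssl1, the latter the muscle-enriched paralogue, shifted by 1.14 (exact permutation p = 0.0303, adjusted p = 0.0337). It missed the threshold without any one of normal lungs 1, 2, 3 and 5 or tumors 1, 3, 4, 5 and 6 (shift 1.02 to 1.21, exact permutation adjusted p = 0.0519 to 0.0667). Adssl1 itself fell with a log2 change of -1.91 (± 0.38 SE, adjusted p = 6.50e-04), and tumor 7, at 241, was the highest tumor for it. The summed cardiac muscle markers (Myh6 and Nppa among the 5 found, none called) reached 33146 in tumor 7, against 128.5 to 2121 in the other 6 tumors and 182.0 to 3528 in normal lung. Myh6 was at 0 in tumor 3. The part of these markers in the Adssl1 value was not tested.

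Further genes of the same pathways were read from the same fit. Of 69 further genes of nucleotide, folate and methionine metabolism, 67 were in the table (Nme2 and Upb1 were not analysed here). Of these 67, 24 were higher (35.8%, against 31.4% of all genes) and 18 lower (26.9%, against 30.1%), and their median log2 fold change was -0.03. Among 14 further folate and one-carbon genes, 7 rose and 2 fell, and among 10 genes of nucleotide breakdown 3 rose and 5 fell. Deoxynucleotide supply and clean-up gave 3 of 8 in each direction. Salvage gave 4 increases and 3 decreases among 10 genes, nucleotide kinases 2 and 1 among 7, and nucleoside carriers 2 and 0 among 3. Glycine cleavage and the methionine cycle gave 3 increases and 2 decreases among 11, and reserves and partners of the synthesis enzymes gave 0 increases and 2 decreases among 4.

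Among these further genes with a mean log2 value of at least 4, 4 of the 5 largest called increases were those of Aldh1l2, Dctd, Slc29a2 and Ada. Aldh1l2, the mitochondrial enzyme that oxidizes formyl-folate, had 41.3, 40.9, 88.8, 26.8 and 29.9 in normal lungs and 934, 519, 782, 773, 798, 730.5 and 374 in tumors. The groups were widely separate, with a log2 change of 3.997 (± 0.31 SE, adjusted p = 1.42e-07), or 16.0-fold. Dctd, which deaminates dCMP to dUMP, rose from a mean of 20.8 ± 9.24 to 159 ± 102 (SD), with a log2 change of 2.72 (± 0.43 SE, adjusted p = 1.08e-04). The nucleoside carrier Slc29a2 rose from 33.1 ± 7.40 to 186 ± 53.6, with a log2 change of 2.44 (± 0.25 SE, adjusted p = 2.00e-06). Adenosine deaminase, Ada, rose from 51.4 ± 20.4 to 195 ± 70.6, with a log2 change of 1.91 (± 0.33 SE, adjusted p = 2.28e-04).

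The 5 largest called decreases by the same rule were those of Tymp, Xdh, Ampd3, Cda and Samhd1, which break down or deaminate nucleotides or their parts. Tymp, thymidine phosphorylase, fell from 533 ± 175 to 33.9 ± 9.97 (SD), with a log2 change of -3.94 (± 0.29 SE, adjusted p = 8.13e-08), although 42.0% of its exon bases are shared with neighbouring genes in GENCODE M21. Xdh, which oxidizes purine bases to urate, fell from 2795 ± 599.8 to 432 ± 309, with a log2 change of -2.91 (± 0.37 SE, adjusted p = 1.41e-05). Samhd1, which degrades dNTPs, had 6656, 5197, 6304, 5313 and 6659 in normal lungs and 1109.8, 1549, 784, 1191, 1575, 1863 and 4869 in tumors. It fell with a log2 change of -1.94 (± 0.34 SE, adjusted p = 2.57e-04), and tumor 7 was much closer to the normal lungs than the other 6 tumors were. Tumor 7 also had the highest summed leukocyte markers of the tumors (Ptprc and Csf1r among 7, all 7 lower in tumors), 6902 against 245.9 to 1797 in the others and 5757 to 10618 in normal lung, and the part of these markers was not tested. Cd3e was at 0 in tumors 1, 2 and 3 and S100a8 in tumor 3.

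Cda, cytidine deaminase, fell with a log2 change of -2.15 (± 0.51 SE, adjusted p = 0.00255), and Ampd3, AMP deaminase, fell with a log2 change of -2.65 (± 0.73 SE, adjusted p = 0.00651). Both calls were lost with a Y-linked covariate (log2 -1.29 and -1.94). For Ampd3, tumor 3 held a normalized count of 1.98, below the floor of 3 reads, and without that tumor the log2 fold change was -2.06. Under edgeR, which also lacked tumor 3, it was -1.75 for Ampd3 and -1.50 for Cda. Without the trachea-titled tumors, the log2 fold change of Ampd3 was -3.34.

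The spread of the members among tumors was then set beside that of other genes. The median SD of log2 values across the 7 tumors was 0.37 over the members, 0.63 over all genes tested and 0.44 over the genes in the members' range of levels. Across the 5 normal lungs it was 0.21, 0.35 and 0.23. The difference between members and other genes was not tested. Over the 25 members that rose, the median log2 level was 8.30 to 8.61 in normal lungs, and 10.09, 10.24, 10.45, 9.98, 10.09, 10.07 and 9.69 in tumors 1 to 7. The members that rose and those that fell were picked by their calls in these same samples. The gap between tissues in their medians therefore adds nothing to those calls. Tumor 7 was the lowest tumor for 16 of these 25 members, tumor 3 the highest for 12 and tumor 2 the highest for 10. Over the 4 members that fell, the median was 10.35 to 10.51 in normal lungs and 9.30 to 9.95 in tumors. Tumor 7 had the lowest median there too, although tumor 2 was the lowest for Prps2 and tumor 3 for Mthfd1. The summed neuroendocrine markers were lowest in tumor 7 among the tumors, at 29971, and their part was not tested. The summed fibroblast and smooth muscle markers (Col1a1 and Col1a2 among them) were also highest in tumor 7 among the tumors, at 25512, against 2851 to 14420 in the others and 11443 to 24096 in normal lung. Of these 6 markers 4 were lower in tumors, and their part was not tested. Both erythroid markers found (Hbb-bs and Hba-a1) were lower in tumors, with sums of 6332 to 140742 per normal lung, highest in normal lung 3, against 77.2 to 9343 per tumor. Their part was not tested.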

How the data were processed

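Poly-A RNA-seq of 5 normal lungs and 7 tumors was analysed from a table of 30399 Ensembl genes, of which 29982 were named by GENCODE M21. The authors deposited a normalized read count signal per gene, scaled per sample and neither to a fixed total nor by gene length. The submitters' processing notes name featureCounts, DESeq2 and GRCm39. The aligner, annotation, versions, use of strand and treatment of reads shared by near-identical copies are not given in the sources used here. The unit was worked out from the values: 100% were whole multiples (within 0.001 of a read) of what 1 read is worth in that column, which gave the depths. A check of the recovered reads passed for 11 of the 12 columns. Tumor 3, the other one, was left out of the count tests and of the check for duplicates.

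limma 3.58.1 (trend, R 4.3.3) compared tumor with normal lung on log2(value + 1), without a covariate, over genes whose mean reached 1, with Benjamini-Hochberg adjustment over 23674 genes. A fold change on this scale understates the change of low genes. Pair differences used exact two-sided permutation tests (scipy 1.17.1) adjusted over 10 pairs. The design had assumed normalized values, as found. Alternatives were edgeR 4.0.16 and DESeq2 1.42.0 on recovered reads of 11 samples, other scalings, filters and pseudocounts, a Y-linked covariate, same-numbered tumors averaged or correlated, no trachea-titled tumors, and each sample left out. The scripts were tested on simulated data. Same-group libraries were also checked for duplicates on genes with at least 10 reads, and the closest of 25 pairs gave a chi-square of 18.4 times its degrees of freedom, above sampling noise.

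The members, lists, pairs and motifs were chosen with earlier results of these data known. Named were all members, the genes of the pairs and, of the further pathway genes with a mean log2 value of at least 4, the 5 largest called increases and 5 largest called decreases, plus 2 markers per list. One of the named increases is not reported here. Promoter sequences are from RefSeq (GRCm38.p6), whose build differs from that in the processing notes, so expression was matched by symbol only. All 4 printed starts were found in a GENCODE M21 transcript. Exon lengths and overlaps are from GENCODE M21.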

Additional observations from a re-analysis of the deposited data

Results flagged for a closer look

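Of 112 sets of values examined by Dixon's test at its 95% level (the named genes on log2(value + 1) and the 10 pairs, in each tissue), 11 held a sample far from the others, where chance alone gives about 5.6. Tumor 2 accounted for 5 of the 11. It was lowest for Rrm2 (9.05, others 11.03 to 12.31), for Rrm2 minus Rrm1 (-2.10, others 0.14 to 0.68) and for Ctps minus Ctps2 (-0.24, others 0.07 to 0.27). It was highest for Slc29a2 (8.23, others 7.19 to 7.61) and for Prps1 minus Prps2 (1.02, others -0.79 to -0.26).

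Normal lung 3 accounted for 4 of the 11, as the highest normal lung in each. Its values were 5.25 for Dctd (others 4.005 to 4.28), -1.12 for Rrm2 minus Rrm1 (others -2.57 to -2.17), -1.71 for Rrm2 minus Rrm2b (others -3.52 to -3.09) and 0.75 for Shmt2 minus Shmt1 (others 0.08 to 0.17). The remaining samples were tumor 3, lowest for Ampd3 at 1.58 (others 4.87 to 6.86), and tumor 1, lowest for Shmt2 minus Shmt1 at 0.95 (others 1.77 to 2.25).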

How the results depend on the processing

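Of the 32 members, 27 kept their direction and side of the threshold in all 24 alternatives. The members called higher numbered 23 to 27 and those called lower 4 in each alternative. With 1 sample left out in turn the counts were 23 to 26 members higher and 4 lower, 22 to 26 further pathway genes higher and 17 to 21 lower, and 6829 to 7684 of all genes higher and 6526 to 7574 lower, with 8 to 10 pairs past the threshold. Over the alternatives all genes gave 5874 (Y-linked covariate) to 8617 (equal totals) higher and 4821 (edgeR) to 7574 (without tumor 7) lower, edgeR on the recovered reads giving 6384 higher. Equal totals moved the median of all genes from 0.04 to 0.24 and gave 27 members higher.

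The log2 fold change of Phgdh, not called in any of these, turned negative with a Y-linked covariate (-0.14), with same-numbered tumors averaged (-0.17) or correlated (-0.042, consensus correlation 0.30), without trachea-titled tumors (-0.069), without normal lung 4 (-0.037) and without tumor 7 (-0.11), and ran from -0.11 to 0.21 with 1 sample left out. Ctps minus Ctps2 also missed the threshold with same-numbered tumors averaged (0.48) and without trachea-titled tumors (0.46), and Mthfd2l with a Y-linked covariate (0.43), with correlated tumors (0.50) and under unfiltered edgeR (0.49). Prps1 was likewise lost under unfiltered edgeR (0.70). The cause was not tested. No paired analysis was possible because the replicate numbers are the order of listing and the groups share no number in the titles.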
